A study of Mus musculus with 6 samples.

Results

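E proteins, their ID inhibitors and the hematopoietic partners TAL1 and LYL1 were described in a comparison of pro-lymphoid and pro-myeloid culture of leukemic progenitors. The 9 genes are Tcf3, Tcf4 and Tcf12 (E proteins), Id1, Id2, Id3 and Id4 (ID inhibitors), and Tal1 and Lyl1 (partners). They were chosen by name from the 23337 genes of the count table, and all 9 were found there. Polyadenylated RNA had been sequenced from mouse hematopoietic stem and progenitor cells (HSPCs) transformed with the leukemia fusion oncogene MLL-AF9, which both groups carry. One group, of 3 libraries, came from pro-lymphoid culture (replicates 1, 5 and 6), and the other, of 3 libraries, from pro-myeloid culture (replicates 2, 3 and 4). The labels name no strain, age, medium, cytokine or clone, and no untransformed cells were analysed here. Nor do they give the culture or animal of each library, so the 3 libraries of a group may be technical replicates, and p-values then reflect only the variation among them.

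E proteins are basic helix-loop-helix (bHLH) factors that bind E-box DNA as dimers with each other or with tissue-restricted bHLH partners. Tcf3 encodes E12 and E47, which B and T lymphocyte development requires, Tcf4 encodes E2-2, a regulator of plasmacytoid dendritic cells, and Tcf12 encodes HEB, which acts in thymocytes. ID proteins have the helix-loop-helix but no basic region, so that an E protein bound to an ID protein cannot bind DNA. TAL1 and LYL1 are partners that bind DNA with an E protein, in a complex with LMO2 and LDB1 in stem, erythroid and megakaryocytic cells. The counts are per gene and do not tell isoforms such as E12 and E47 apart.

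The members of a family are similar in their DNA-binding or dimerization domain, so the most similar 60 bases of their longest coding sequences are shown to make plain how far their reads can be told apart. Tcf4 and Id4 are not shown. The sequences are those of GENCODE M21 transcripts on GRCm38 (the assembly also named mm10), written 5′ to 3′ on the coding strand, and capitals mark bases that differ from the first sequence of the group. In the ID group, the window lies in the second helix of the helix-loop-helix. It is at chr2:152736587-152736646 (+ strand) in Id1, chr12:25095774-25095833 (- strand) in Id2 and chr4:136144071-136144130 (+ strand) in Id3, each in exon 1.
Id1: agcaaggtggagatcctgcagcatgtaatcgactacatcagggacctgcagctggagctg
Id2: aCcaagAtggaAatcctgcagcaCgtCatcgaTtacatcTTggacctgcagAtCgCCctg
Id3: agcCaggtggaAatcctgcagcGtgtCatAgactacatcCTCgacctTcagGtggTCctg
Id2 and Id3 each differed from Id1 at 12 of the 60 bases.
In the E protein group, the window spans the end of the helix-loop-helix and the coding sequence after it. It crosses 1 intron, at chr10:80410246-80412857 (- strand, exons 18 and 19) in Tcf3 and chr9:71849897-71856335 (- strand, exons 19 and 20) in Tcf12.
Tcf3: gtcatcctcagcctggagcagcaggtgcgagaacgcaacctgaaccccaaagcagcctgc
Tcf12: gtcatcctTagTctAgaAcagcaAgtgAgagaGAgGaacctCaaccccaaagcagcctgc
Tcf12 differed from Tcf3 at 10 of the 60 bases.
In the partners, the window covers the basic region and the start of the first helix, at chr4:115068306-115068365 (+ strand, exon 5) in Tal1 and chr8:84703927-84703986 (+ strand, exon 4) in Lyl1.
Tal1: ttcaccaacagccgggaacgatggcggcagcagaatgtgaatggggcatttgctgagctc
Lyl1: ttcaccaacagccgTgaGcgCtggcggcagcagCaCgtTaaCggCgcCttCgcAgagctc
Lyl1 differed from Tal1 at 11 of the 60 bases.

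Over all GENCODE transcripts of the members, the longest stretch that genes of the same family share without a difference was 47 bases, and the reads were 100 bases long before trimming. It lay between Tcf4 and Tcf12, and the other 9 pairs shared at most 23 bases. No exon of a member overlapped an exon of another counted gene.

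The libraries held 34972488 to 46724382 counts, and 3 counts in a library correspond to 0.0650 to 0.0888 CPM, a unit of counts relative to the library total. Of 12477 genes that passed the filter on low counts, 4821 (38.6%) differed between cultures at an edgeR adjusted p under 0.05, 2169 (17.4%) higher and 2652 (21.3%) lower in pro-lymphoid culture. The groups did not overlap for 53.5% of the genes tested. All 8 genes of a stem and progenitor cell list (Kit, Cd34, Flt3, Ly6a, Ptprc, Spi1, Cd48 and Myb) were tested, with a summed 1647 to 1922 CPM in pro-lymphoid and 1553 to 1796 CPM in pro-myeloid libraries. The single genes differed in both directions, with 4 called higher and 3 lower in pro-lymphoid culture, beside 17.4% and 21.3% of all genes. Flt3 had means of 434 CPM in pro-lymphoid and 13.9 CPM in pro-myeloid culture, and Myb 308 and 636 CPM. The list of 8 neutrophil genes summed to 162 to 366 CPM in pro-lymphoid and 4618 to 9082 CPM in pro-myeloid libraries. The 7 T cell markers summed to 1.25 to 3.61 CPM in pro-lymphoid and 1.98 to 19.3 CPM in pro-myeloid libraries, with Cd3e at 0 in all 6, Lck at up to 2.88 CPM and Thy1 lower in the pro-lymphoid libraries (edgeR adjusted p = 0.0176). Pro-myeloid replicate 2 stood apart from the other pro-myeloid libraries in several genes, with 148 CPM of Mpo against 1512 and 3305 CPM and 0.729 CPM of Flt3 against 30.7 and 10.2 CPM.

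Of the 9 members, 8 passed the filter, and 4 differed between the cultures, where 38.6% of all genes tested did. Tcf3 and Tal1 were higher and Tcf4 and Id1 lower in pro-lymphoid culture, beside 17.4% and 21.3% of all genes. The groups did not overlap for the same 4 members, beside 53.5% of all genes. A count of 4 of 8 is close to this background, so the values of the single members carry the description. The median log2 fold change (pro-lymphoid minus pro-myeloid) of the 8 tested members was -0.42, against 0.00 over all genes tested, and the median of its size was 1.02, against 0.45. Without pro-myeloid replicate 2, the library that stood apart, all 4 were still called, at log2 fold changes of 1.36 for Tcf3, -0.68 for Tcf4, -4.80 for Id1 and 3.07 for Tal1. In bulk samples, fewer cells that express a gene and less of its RNA per cell cannot be told apart.

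**Figure D1:**
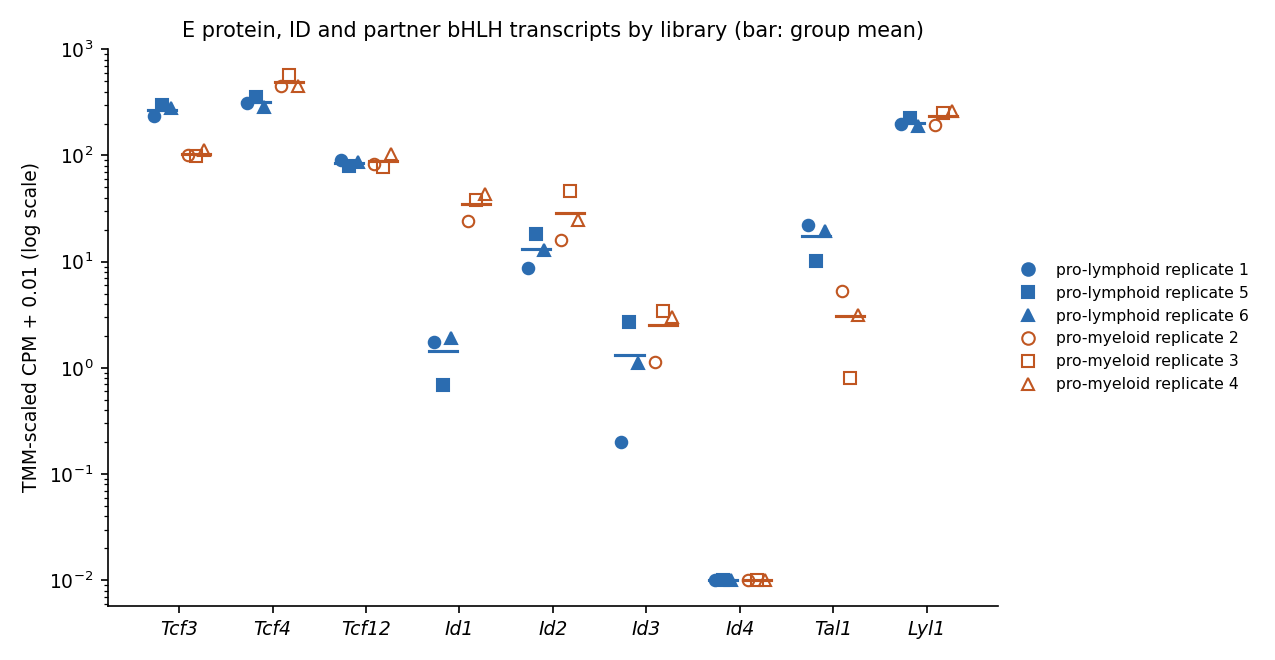
TMM-scaled CPM + 0.01 (log axis) of the 9 members in each library, with filled blue symbols for pro-lymphoid and open orange symbols for pro-myeloid libraries and bars for group means. The groups separate for Tcf3, Tcf4, Id1 and Tal1, they overlap for Tcf12, Id2, Id3 and Lyl1, and Id4 is at 0 in all 6 libraries.

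Tcf3 was the E protein gene that was higher in pro-lymphoid culture. The gene lies at chr10:80409165-80433653. Its level was 237, 296 and 279 CPM in pro-lymphoid replicates 1, 5 and 6, and 102, 99.0 and 112 CPM in pro-myeloid replicates 2, 3 and 4. Every pro-lymphoid library was above every pro-myeloid library, and the spread within each culture was small beside the gap. The means were 270 ± 30.5 and 104 ± 6.58 CPM (SD, n = 3 each), a 2.60-fold difference. The log2 fold change was 1.38 (SE 0.12, 95% interval 1.09 to 1.66), with an edgeR adjusted p of 0.000243.

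Tcf4 went the other way. It lies at chr18:69344492-69687967. Its level was 314, 357 and 288 CPM in the pro-lymphoid replicates, and 451, 578 and 446 CPM in the pro-myeloid replicates. All pro-lymphoid values were below all pro-myeloid values, and pro-myeloid replicate 3 was the highest. The means were 320 ± 35.1 and 492 ± 74.6 CPM (SD, n = 3 each), 1.54-fold lower in pro-lymphoid culture. The log2 fold change was -0.62 (SE 0.15, 95% interval -0.97 to -0.27), with an edgeR adjusted p of 0.0154. The call was lost without pro-lymphoid replicate 6, where the log2 fold change was -0.55 and the edgeR adjusted p 0.0725.

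Tcf12, the third E protein gene, lies at chr9:71844252-72111819 and did not pass the test. It had 91.4, 79.0 and 86.3 CPM in the pro-lymphoid replicates, and 83.8, 77.5 and 102 CPM in the pro-myeloid replicates. The values of both cultures were interleaved. The 95% interval of its log2 fold change ran from -0.35 to 0.28 around -0.04, and the edgeR adjusted p was 0.840. Unlike the other E protein genes, its sign depended on the scaling, at 0.0067 with upper-quartile factors.

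Levels of different genes were compared after division by the length of the counted exons (CPM per kb). In pro-lymphoid culture Tcf3 led with 76.3 ± 8.61 CPM per kb, before Tcf4 with 41.6 ± 4.57 and Tcf12 with 16.9 ± 1.24 (SD, n = 3). In pro-myeloid culture Tcf4 led with 64.1 ± 9.72 CPM per kb, before Tcf3 with 29.4 ± 1.86 and Tcf12 with 17.4 ± 2.55 (SD, n = 3). Thus Tcf3 and Tcf4 changed places, and no library departed from the order of its culture. Of the summed E protein level, Tcf3 made up 53.1%, 57.3% and 59.1% in the pro-lymphoid replicates, and 27.6%, 23.6% and 28.7% in the pro-myeloid replicates. The Tcf4 share was 32.6%, 32% and 28.1%, and 56.5%, 63.5% and 52.9%. The per-length ratio of Tcf3 to Tcf4 had a mean of 1.84 ± 0.241 in pro-lymphoid libraries and 0.467 ± 0.0873 in pro-myeloid libraries (SD, n = 3 each). The order in pro-lymphoid culture rests on the annotated length, since the Tcf4 exons sum to 7681 bases and the Tcf3 exons to 3547. On CPM without length, Tcf4 was above Tcf3 in all 6 libraries. The summed E protein level differed less than its composition, with 126, 145 and 133 CPM per kb in the pro-lymphoid and 104, 119 and 110 in the pro-myeloid replicates.

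Among the inhibitors, Id1 showed the largest difference of the 8 tested members. It lies at chr2:152736274-152737410. Its level was 1.74, 0.680 and 1.91 CPM in pro-lymphoid replicates 1, 5 and 6 (64, 26 and 82 counts), and 24.0, 37.7 and 43.0 CPM in pro-myeloid replicates 2, 3 and 4 (920, 1273 and 1984 counts). The lowest pro-myeloid value, in replicate 2, was more than 10 times the highest pro-lymphoid value. The means were 1.44 ± 0.665 and 34.9 ± 9.83 CPM (SD, n = 3 each). The fitted difference was 24.0-fold, lower in pro-lymphoid culture, at a log2 fold change of -4.59 (SE 0.39, 95% interval -5.51 to -3.67) and an edgeR adjusted p of 0.000206. The neutrophil markers summed to more in the same libraries (4618 to 9082 against 162 to 366 CPM), mostly from Elane, Mpo, Prtn3 and Ctsg. Ltf and Camp, of the same list, reached at most 0.802 and 0.391 CPM in any library and did not pass the filter. The part of the neutrophil markers in the Id1 values was not tested.

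Id2, needed for innate lymphoid and conventional dendritic cells, lies at chr12:25093799-25096092. It had 8.63, 18.2 and 12.9 CPM in the pro-lymphoid replicates, and 15.9, 46.3 and 24.5 CPM in the pro-myeloid replicates. The groups overlapped, since pro-lymphoid replicate 5 was above pro-myeloid replicate 2. The log2 fold change was -1.12 (SE 0.43, 95% interval -2.12 to -0.13), and the gene did not pass the edgeR test (adjusted p = 0.0730). It passed in DESeq2 (log2 fold change -1.12, adjusted p = 0.0204) and in edgeR without pro-myeloid replicate 2 (-1.42, adjusted p = 0.0196). Of 8 markers of natural killer and innate lymphoid cells, which depend on Id2, Ncr1 and Gzma were at 0 in all libraries, and the list summed to 1.33 to 5.63 CPM in pro-lymphoid and 0.651 to 6.14 CPM in pro-myeloid libraries. The 6 conventional dendritic cell markers summed to 464 to 708 and 6.64 to 82.7 CPM, mostly from Flt3 and Itgax, while Xcr1 and Clec9a stayed below 1 CPM. Their part in the Id2 values was not tested.

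Id3, which restrains E proteins in lymphocytes, lies at chr4:136143822-136145392 and was detected at low level. It had 0.190, 2.67 and 1.09 CPM in the pro-lymphoid replicates (7, 102 and 47 counts), and 1.12, 3.41 and 3.01 CPM in the pro-myeloid replicates (43, 115 and 139 counts). Pro-lymphoid replicate 5 was above pro-myeloid replicate 2, and the libraries of a culture differed severalfold. Its log2 fold change was -0.93 (SE 0.71, 95% interval -2.60 to 0.75), with an edgeR adjusted p of 0.340. Id4 (chr13:48261427-48264036) had 0 counts in all 6 libraries and was not tested, which allows a level of up to 0.0888 CPM in a library, for counting error only.

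The inhibitors also differed in composition. Per length, Id2 made up 77.4% ± 2.36 of the summed ID level in pro-lymphoid libraries and 34.6% ± 9.0 in pro-myeloid libraries, and Id1 13.8% ± 8.78 and 61.5% ± 9.25 (SD, n = 3 each). The summed ID level was 8.89, 17.8 and 13.4 CPM per kb in the pro-lymphoid replicates and 40.0, 81.3 and 69.6 CPM per kb in the pro-myeloid replicates. Every pro-myeloid library was above every pro-lymphoid library, and the means of 63.6 ± 21.3 and 13.4 ± 4.47 (SD, n = 3 each) were 4.76-fold apart. The per-length ratio of summed E protein to summed ID transcripts was 14.1, 8.16 and 9.96 in the pro-lymphoid replicates and 2.60, 1.46 and 1.58 in the pro-myeloid replicates. E protein transcripts thus exceeded ID transcripts in all 6 libraries, by more in pro-lymphoid culture. The ratio is a description of chosen genes and was given no p. Its means were 10.8 ± 3.07 and 1.88 ± 0.629 (SD, n = 3 each), and with Id1 left out of the sum they were 12.8 and 5.15. With Tcf3 left out, the pro-lymphoid mean was 4.73 and the pro-myeloid mean 1.37. Without division by length, the means were 45.3 and 11.2, so the size of the ratio depends on the scale, and the pro-lymphoid mean was the higher in each case.

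**Figure D2:**
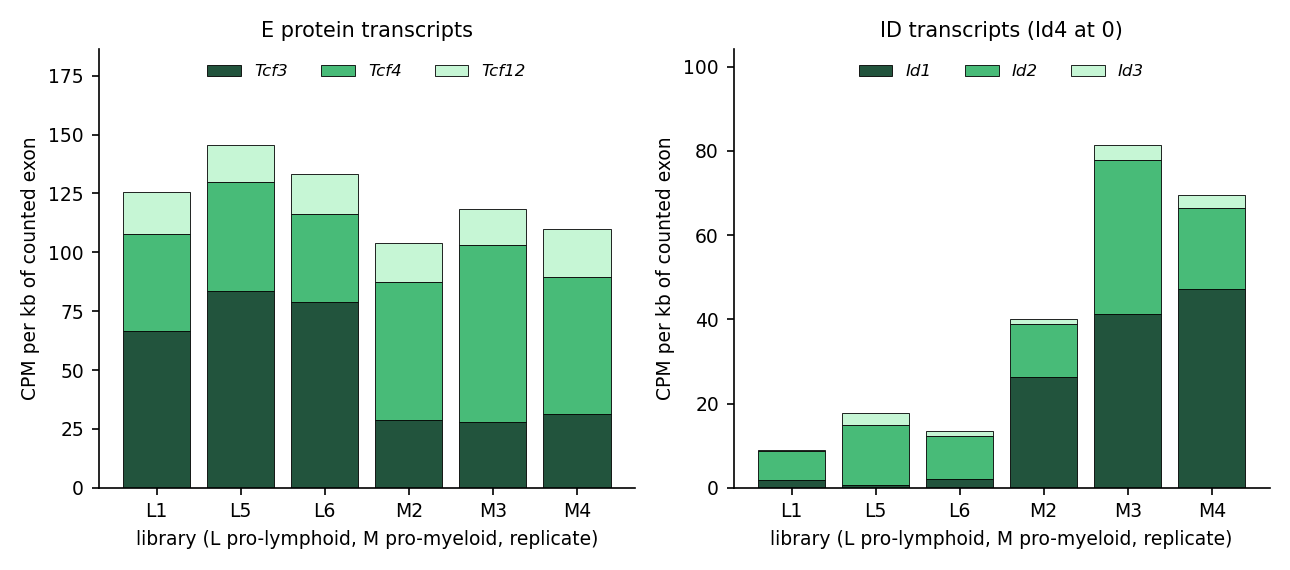
CPM per kb of counted exon, stacked by gene, for the E protein genes (left) and the ID genes (right) in each library (L pro-lymphoid, M pro-myeloid, with the replicate number). Tcf3 is the largest E protein block in the L bars and Tcf4 in the M bars, and the ID bars reach 8.89 to 17.8 in L and 40.0 to 81.3 in M libraries.

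Tal1, a bHLH gene that is essential for blood stem cell formation, was higher in pro-lymphoid culture. It lies at chr4:115059527-115071755. Its level was 22.4, 10.1 and 19.5 CPM in pro-lymphoid replicates 1, 5 and 6, and 5.34, 0.799 and 3.12 CPM in pro-myeloid replicates 2, 3 and 4 (205, 27 and 144 counts). The groups did not overlap, but the pro-myeloid libraries varied widely, with replicate 2 the highest and replicate 3 the lowest. The means were 17.3 ± 6.41 and 3.09 ± 2.27 CPM (SD, n = 3 each). Tal1 had a log2 fold change of 2.47 (SE 0.56, 95% interval 1.15 to 3.79), which is 5.55-fold, with an edgeR adjusted p of 0.0126.

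Lyl1, its close relative, lies at chr8:84701457-84704716 and did not pass the test. It had 196, 225 and 189 CPM in the pro-lymphoid replicates, and 192, 253 and 261 CPM in the pro-myeloid replicates. The groups overlapped through pro-myeloid replicate 2. The log2 fold change was -0.21 (SE 0.15, 95% interval -0.56 to 0.13), with an edgeR adjusted p of 0.288. Per length, Lyl1 was the most abundant of the 9 members in both cultures, at 113 ± 10.5 and 131 ± 20.9 CPM per kb, and Tal1 had 4.17 ± 1.54 and 0.742 ± 0.546 CPM per kb (SD, n = 3 each). The ratio of Lyl1 to Tal1 per length was 20.2, 51.3 and 22.4 in the pro-lymphoid and 83.2, 732 and 193 in the pro-myeloid replicates. Megakaryocyte and erythroid markers, whose cells use TAL1, were low. The 6 megakaryocyte genes summed to 7.70 to 9.87 CPM in pro-lymphoid and 11.9 to 15.5 CPM in pro-myeloid libraries, and the 7 erythroid genes to 0.785 to 1.42 and 1.30 to 1.5 CPM, with Hba-a1 and Hbb-b1 at 0 in all libraries.

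Ranked per length, the members stood in pro-lymphoid culture in the order Lyl1, Tcf3, Tcf4, Tcf12, Id2, Tal1, Id1, Id3 and Id4. Neighbours did not overlap there except Id1 (1.58 ± 0.730 CPM per kb) and Id3 (1.38 ± 1.32). In pro-myeloid culture the order was Lyl1, Tcf4, Id1, Tcf3, Id2, Tcf12, Id3, Tal1 and Id4. There, Id1 overlapped Tcf3, Tcf3 overlapped Id2, Id2 overlapped Tcf12 and Id3 overlapped Tal1, so that these neighbours do not differ beyond their spread. Both orders rest on the annotated lengths. On CPM without length, Tcf4 was above Lyl1 in every library, with means of 320 and 492 CPM against 203 and 236 CPM. Id1 was then below Tcf3 in every pro-myeloid library, with means of 34.9 and 104 CPM.

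**Figure D3:**
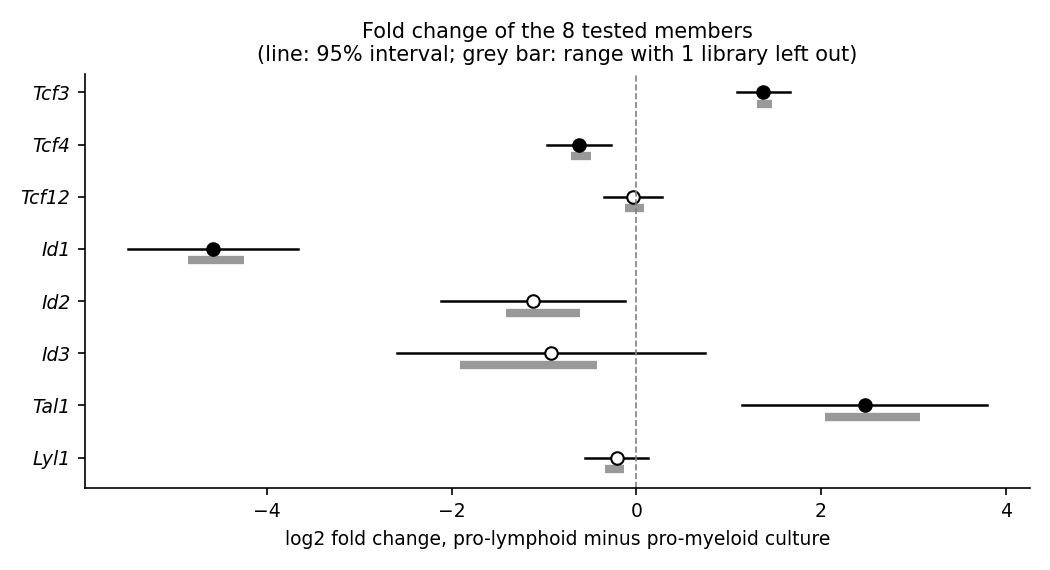
Log2 fold change (pro-lymphoid minus pro-myeloid) of the 8 tested members with its 95% interval (line), and the range over the 6 fits that each leave out 1 library (grey bar). Filled points passed the edgeR test at an adjusted p under 0.05, which were Tcf3, Tcf4, Id1 and Tal1, and only the grey bar of Tcf12 crosses 0.

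Genes that E proteins are known to activate or repress in early lymphoid cells differed in both directions. Of 18 listed genes, 12 were tested, of which 4 were called higher and 5 lower in the pro-lymphoid libraries, beside 17.4% and 21.3% of all genes tested. Their median log2 fold change was -0.44. It pools activated and repressed genes, so it is no measure of E protein activity. Rag1, Rag2 and Il7r (0, 4 and 20 counts in all pro-myeloid libraries) passed the filter only through the pro-lymphoid libraries. Gfi1, Vpreb1 and Igll1 (21, 21 and 11 counts in all pro-lymphoid libraries) passed it only through the pro-myeloid libraries. The direction of these genes was thus largely fixed by the filter, and the shares of all genes are no measure for it. Rag2, a subunit of the V(D)J recombinase, had 18.1 ± 3.05 CPM in pro-lymphoid libraries and 0.0342 ± 0.0307 CPM in pro-myeloid libraries (SD, n = 3 each), at an edgeR adjusted p of 4.76e-07. Rag1, the other subunit, had 7.32, 7.30 and 1.56 CPM in the pro-lymphoid replicates and 0 counts in pro-myeloid culture, at least 205-fold higher by a floor of 3 counts for the whole group (edgeR adjusted p = 0.00797). Il7r, the receptor of interleukin-7, had 14.6 ± 5.09 and 0.171 ± 0.0165 CPM (edgeR adjusted p = 9.49e-05). The fourth gene called higher was Gfi1b, a repressor that acts in blood stem cells and in erythroid development.

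Gfi1b and its paralog Gfi1 moved in opposite directions. Gfi1b had 103, 131 and 155 CPM in the pro-lymphoid and 14.4, 2.75 and 8.32 CPM in the pro-myeloid replicates, a log2 fold change of 3.92 (SE 0.52, edgeR adjusted p = 0.00129). Gfi1, a repressor that acts in neutrophil and lymphoid development, had 0.179 ± 0.050 and 86.9 ± 14.5 CPM (SD, n = 3 each), a log2 fold change of -8.91 (SE 0.26, edgeR adjusted p = 9.03e-07). Foxo1, which induces Rag genes and Il7r in B-cell progenitors, was lower as well, at 6.70 ± 0.945 against 30.1 ± 5.10 CPM (edgeR adjusted p = 0.000278). So was Cdk6, a kinase of the cell cycle that E proteins repress in thymocytes, at 72.9 ± 17.4 against 168 ± 48.1 CPM (edgeR adjusted p = 0.00821). Vpreb1 and Igll1, which encode the surrogate light chain, were at most 3.27 and 0.520 CPM in any library, and both were called lower. The Vpreb1 call was lost in 5 of the 6 fits that each leave out 1 library, all but that without pro-myeloid replicate 2. The Igll1 call was lost without pro-lymphoid replicates 1 or 5 or pro-myeloid replicates 3 or 4. Ebf1, the B-lineage factor that E2A activates, had 6 counts in all pro-lymphoid libraries together and 0 in pro-myeloid culture, and Cd3e had none.

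Of 10 listed genes of plasmacytoid dendritic cells, which E2-2 maintains, all were tested. In the main fit, 6 were called higher and none lower in pro-lymphoid culture, beside 17.4% and 21.3% of all genes tested. Their median log2 fold change was 1.11. Tcf4 itself was lower there. Spib and Siglech (15 and 61 counts in all pro-myeloid libraries) passed the filter only through the pro-lymphoid libraries. The direction of these genes was thus largely fixed by the filter, and the shares of all genes are no measure for it. Spib, an ETS factor of that lineage, had 54.2, 146 and 56.5 CPM in the pro-lymphoid replicates and 0.0781, 0.148 and 0.152 CPM in the pro-myeloid replicates, a log2 fold change of 9.36 (SE 0.65, edgeR adjusted p = 5.07e-05). Bcl11a, a zinc finger factor upstream of Tcf4, had 195 ± 47.8 and 63.5 ± 8.68 CPM (SD, n = 3 each), at a log2 fold change of 1.62 and an edgeR adjusted p of 0.000898. Siglech, a surface receptor of plasmacytoid dendritic cells, varied between 6.78, 93.2 and 51.1 CPM in the pro-lymphoid replicates and was at 0.0260, 1.30 and 0.347 CPM in the pro-myeloid replicates (edgeR adjusted p = 0.00482). Its call was lost with limma-voom (adjusted p = 0.0644). Pacsin1, an adaptor of endocytosis, had 14.9 ± 6.76 and 1.85 ± 1.59 CPM (edgeR adjusted p = 0.0129).

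The other calls of that list were less firm. Tlr9, a sensor of DNA, was called (edgeR adjusted p = 0.0242) but lost its call without pro-lymphoid replicate 1, pro-lymphoid replicate 5 or pro-myeloid replicate 4. Irf8 was called at an edgeR adjusted p of 0.0498 although its groups overlapped, and it lost the call without pro-lymphoid replicates 5 or 6 or pro-myeloid replicates 2 or 4. Irf7, Tlr7, Runx2 and Ptprs did not pass the test. Irf7 went the other way, with 1.95, 3.69 and 2.54 CPM in the pro-lymphoid and 4.61, 6.54 and 4.16 CPM in the pro-myeloid replicates. Its groups did not overlap (log2 fold change -0.90, edgeR adjusted p = 0.0587). With DESeq2, and in edgeR without pro-lymphoid replicate 5, 1 gene of the list was called lower. The 6 genes of the separate marker list for plasmacytoid dendritic cells, of which Siglech, Spib, Tlr9 and Irf7 are also in the list above, summed to 220 to 432 CPM in pro-lymphoid and 68.9 to 95.8 CPM in pro-myeloid libraries. The pro-myeloid sums came mostly from Bst2, with 46.6, 66.2 and 53.2 CPM in replicates 2, 3 and 4. Spib and Ccr9 reached at most 0.152 and 0.178 CPM in those libraries. None of the 6 genes was at 0 in all libraries, and their part in the values of Tcf3 and Tcf4 was not tested.

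**Figure D4:**
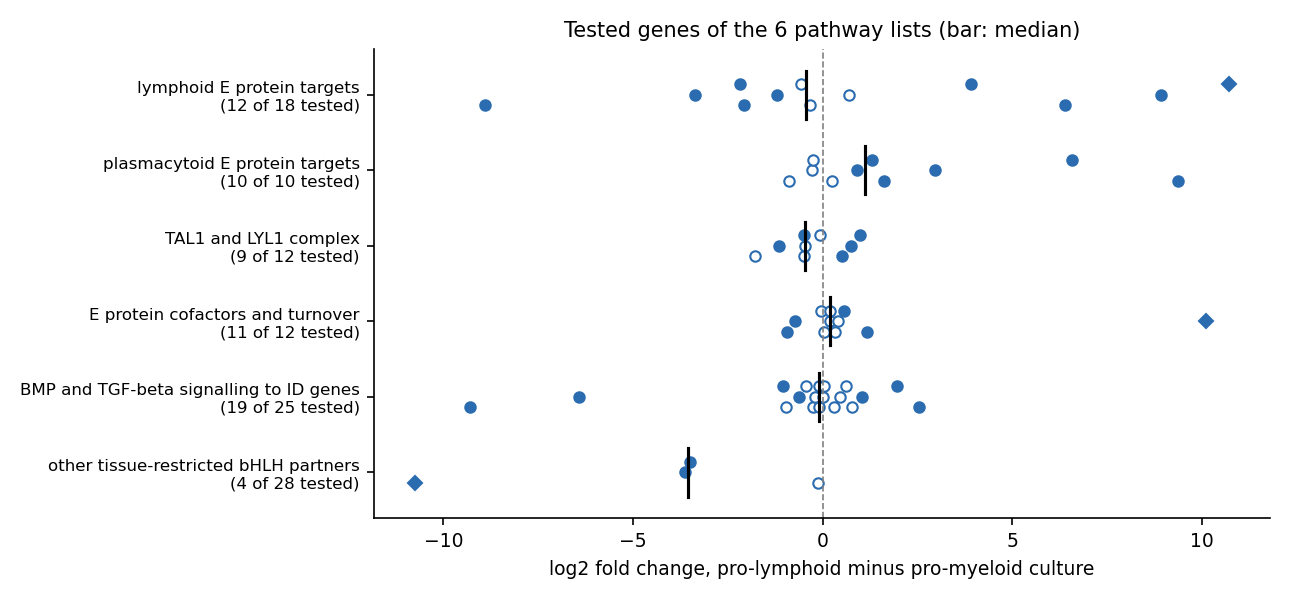
Log2 fold change (pro-lymphoid minus pro-myeloid) of each tested gene in 6 pathway lists, with a bar at the median of the list. Filled symbols passed the edgeR test, open symbols did not, and diamonds mark Rag1, Asb2 and Tcf21, whose counts were 0 in a whole group, so that their position depends on the prior count.

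In the complex that TAL1 and LYL1 form, the bridging factors differed by less than Tal1. Of 12 listed genes, 9 were tested, of which 3 were called higher and 2 lower in the pro-lymphoid libraries, beside 17.4% and 21.3% of all genes tested, with a median log2 fold change of -0.48. Ldb1, the dimerizing scaffold of the complex, had 226 ± 5.12 and 134 ± 4.44 CPM (SD, n = 3 each), at a log2 fold change of 0.75 and an edgeR adjusted p of 0.000972. Its stabilizing partners went apart. Ssbp3 had 47.8 ± 3.49 and 24.0 ± 2.56 CPM (log2 fold change 0.99, edgeR adjusted p = 0.00156). Ssbp2 had 72.7 ± 3.94 and 161 ± 6.79 CPM (log2 fold change -1.14, edgeR adjusted p = 0.000225).

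The LMO adaptors, which link the bHLH dimer to LDB1, also went apart. Lmo2 had 451, 398 and 506 CPM in the pro-lymphoid and 632, 679 and 596 CPM in the pro-myeloid replicates (log2 fold change -0.49, edgeR adjusted p = 0.0243). Lmo1 was higher in pro-lymphoid culture, with means of 80.2 ± 10.3 and 56.6 ± 6.16 CPM (log2 fold change of 0.50, edgeR adjusted p = 0.0280). Each of these calls was lost in 4 of the 6 fits that leave out 1 library. For Lmo2 these were the fits without pro-lymphoid replicates 1 or 5 or pro-myeloid replicates 3 or 4, and for Lmo1 those without pro-lymphoid replicates 5 or 6 or pro-myeloid replicates 3 or 4. Gata2, a GATA factor of stem cells and mast cells, had 21.2, 12 and 31.4 CPM in the pro-lymphoid and 146, 33.2 and 40.9 CPM in the pro-myeloid replicates. It did not pass the edgeR test (adjusted p = 0.0558), although it did without pro-myeloid replicate 3 (adjusted p = 0.0365). The 7 mast cell and basophil markers, Gata2 among them, summed to 13.3 to 34.7 CPM in pro-lymphoid and 78.1 to 156 CPM in pro-myeloid libraries. Gata2 itself made up most of each pro-lymphoid sum and of the sum of pro-myeloid replicate 2. Of the others, Hdc had 0.521, 29.8 and 76.3 CPM and Mcpt8 7.03, 13.1 and 20.6 CPM in pro-myeloid replicates 2, 3 and 4. Both were thus lowest of their group in replicate 2, where Gata2 was highest. Tpsab1 and Fcer1a were at 0 in all libraries, and the part of these markers in the Gata2 values was not tested. Gata1 and Gata3 were too low to test, with 3 and 6 counts over the pro-lymphoid and 7 and 8 over the pro-myeloid libraries, and Ldb2 had 0.

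Cofactors of E proteins and enzymes that turn over E or ID proteins gave 3 higher and 2 lower calls among 11 tested of 12 listed genes, beside 17.4% and 21.3% of all genes tested, with a median log2 fold change of 0.21. The 5 calls together are near the background of 38.6%. Of the called genes, Asb2 passed the filter only through the pro-lymphoid libraries, so its direction was largely fixed by the filter. Asb2, a ubiquitin ligase subunit that targets E2A in Notch-signalled cells, had 2.17, 6.28 and 2.21 CPM in the pro-lymphoid replicates and 0 counts in pro-myeloid culture, at least 138-fold higher by the same floor (edgeR adjusted p = 0.00618). Skp2, a ubiquitin ligase subunit known to act on E2A, had 61.7 ± 8.62 and 27.5 ± 9.06 CPM (log2 fold change 1.16, edgeR adjusted p = 0.0111). The acetyltransferase genes Kat2a and Kat2b differed in opposite directions, Kat2a by a log2 fold change of 0.56 (edgeR adjusted p = 0.00945) and Kat2b by -0.93 (edgeR adjusted p = 0.00299). Ep300, a coactivator bound by the activation domains of E proteins, was called lower (edgeR adjusted p = 0.0276), but not without pro-lymphoid replicates 5 or 6 or pro-myeloid replicates 2 or 3. Usp1 and Wdr48, whose products form an enzyme that stabilizes ID proteins, did not pass, at log2 fold changes of 0.32 and -0.05.

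ID genes, Id1 in particular, are textbook targets of BMP signalling, in which a receptor phosphorylates SMAD1, SMAD5 or SMAD9, which then act with SMAD4. Of 25 listed genes of BMP and TGF-beta signalling, 19 were tested, of which 3 were called higher and 4 lower in the pro-lymphoid libraries, beside 17.4% and 21.3% of all genes tested. Their median log2 fold change was -0.08. Smad1 and Bmpr1a (12 and 34 counts in all pro-lymphoid libraries) passed the filter only through the pro-myeloid libraries. Eng (10 counts in all pro-myeloid libraries) passed it only through the pro-lymphoid libraries. The direction of these genes was thus largely fixed by the filter, and the shares of all genes are no measure for it. The ligand genes Bmp2, Bmp4 and Bmp7 were at 0 in all libraries, and Bmp6 had 1 count in all.

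Smad1 had the largest fold change of the 19 tested genes of this list. It had 0, 0.183 and 0.116 CPM in pro-lymphoid replicates 1, 5 and 6 (0, 7 and 5 counts), and 74.7, 55.2 and 67.4 CPM in pro-myeloid replicates 2, 3 and 4. The pro-lymphoid libraries were near or at 0, and pro-myeloid replicate 2 had the most Smad1. Its log2 fold change was -9.30 (SE 0.40), with an edgeR adjusted p of 3.26e-06. Bmpr1a, a type I BMP receptor gene, had 0.380, 0.340 and 0.163 CPM in the pro-lymphoid and 50, 14.1 and 10.6 CPM in the pro-myeloid replicates (log2 fold change -6.41, SE 0.86, edgeR adjusted p = 0.00140). Pro-myeloid replicate 2, which had the least Id1 of its group, had the most Bmpr1a as well as the most Smad1, and a link of either gene to Id1 was not tested. Bmpr2, the type II receptor gene, was called lower, at 5.27 ± 1.06 against 10.8 ± 4.0 CPM (SD, n = 3 each; edgeR adjusted p = 0.0336). That call was lost without pro-lymphoid replicates 5 or 6 or pro-myeloid replicates 2 or 4. Smurf1, a ubiquitin ligase for SMADs, was called lower at an edgeR adjusted p of 0.0470 and lost the call in each of the 6 fits that leave out 1 library.

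Other transducers did not follow Smad1. Smad5 had 71.4 ± 2.71 and 75.8 ± 16.6 CPM (SD, n = 3 each) and did not pass the edgeR test (adjusted p = 0.710). Smad9 had 1 count in all libraries. The inhibitory Smad6 was higher in pro-lymphoid culture, at 4.83, 4.29 and 5.21 CPM, than in pro-myeloid culture, at 0.807, 1.63 and 1.24 CPM (log2 fold change of 1.97, edgeR adjusted p = 0.00222). Smad3, which carries TGF-beta signals, had 28.8 ± 3.05 and 14.1 ± 3.62 CPM (log2 fold change 1.04, edgeR adjusted p = 0.00853). Eng, a co-receptor, was higher at very low level, with 60 counts in all pro-lymphoid and 10 in all pro-myeloid libraries (edgeR adjusted p = 0.00807). Smad4, Smad7, Tgfb1, Tgfbr1 and Tgfbr2 did not pass. Of the other receptor genes in the list, Acvr1 had 3.05 ± 1.82 and 2.22 ± 3.40 CPM (edgeR adjusted p = 0.748). Acvrl1 had 9.05 ± 4.10 and 12.3 ± 5.88 CPM (edgeR adjusted p = 0.468), and both genes overlapped between the cultures.

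**Figure D5:**
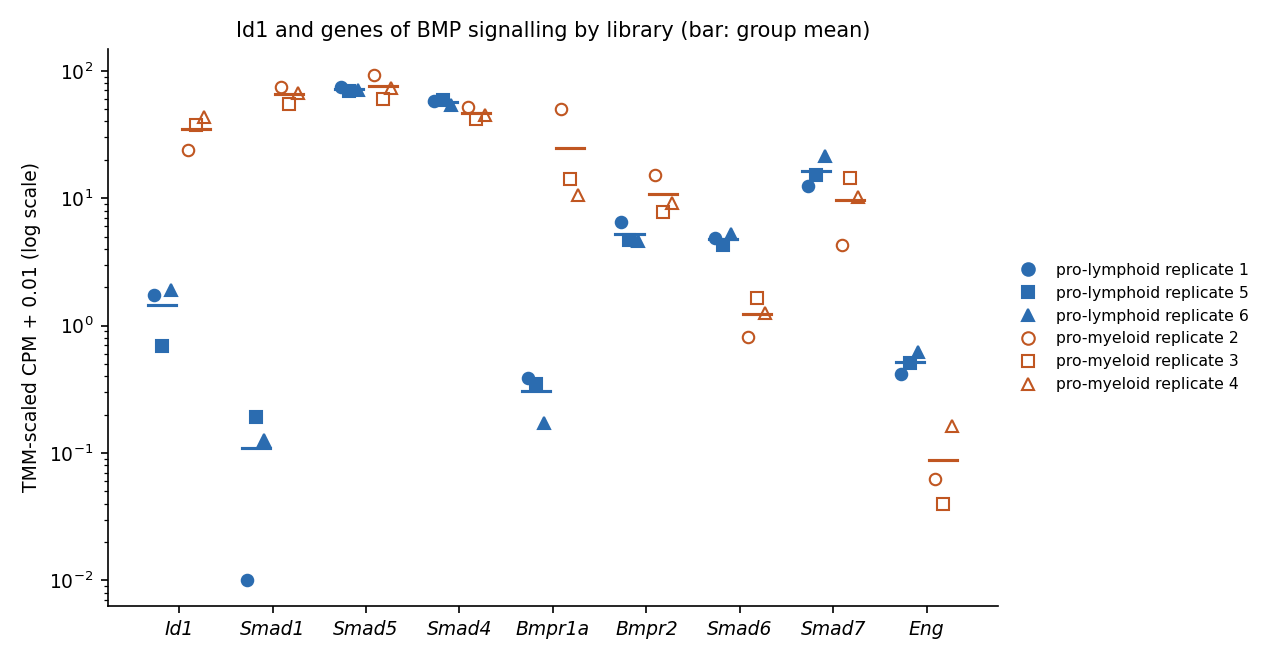
TMM-scaled CPM + 0.01 (log axis) of Id1 and 8 genes of BMP signalling in each library, with filled blue symbols for pro-lymphoid and open orange symbols for pro-myeloid libraries and bars for group means. Smad1 and Bmpr1a are below 0.4 CPM in every pro-lymphoid library and at 10.6 CPM or more in every pro-myeloid library, while Smad5 overlaps between the cultures.

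Other tissue-restricted bHLH genes, whose products also pair with E proteins, were nearly silent. Of 28 listed genes, 16 were at 0 in all 6 libraries, 4 were tested, and 3 of these were lower and none higher in pro-lymphoid culture, beside 21.3% and 17.4% of all genes tested. The pro-lymphoid counts of the 3 summed to 0 (Tcf21), 15 (Bhlha15) and 9 (Myog), so they passed the filter only through the pro-myeloid libraries. Their direction was thus largely fixed by the filter, and the shares of all genes are no measure for it. Tcf21, a mesodermal factor, had 0 counts in pro-lymphoid culture and 4.77, 2.52 and 8.80 CPM in the pro-myeloid replicates, at least 224-fold lower by the same floor (edgeR adjusted p = 0.00410). Bhlha15, a factor of secretory cells, had 0.130 ± 0.0569 and 1.49 ± 0.178 CPM (SD, n = 3 each; edgeR adjusted p = 0.000631). Myog, a muscle factor, had 0.0788 ± 0.0481 and 0.940 ± 0.638 CPM (edgeR adjusted p = 0.00741), and its call was lost without pro-lymphoid replicate 6 (adjusted p = 0.0529). The fourth tested gene, Scx, did not pass. Of 8 stromal cell markers, Col1a2, Col3a1, Dcn and Lum were at 0 in all libraries, and the list summed to 1.90 to 19.4 CPM in pro-lymphoid and 5.54 to 17.1 CPM in pro-myeloid libraries, mostly from Pdgfrb. Col1a1, a collagen gene of that list, was lower in pro-lymphoid culture like the 3 bHLH genes, with 4 pro-lymphoid counts in all against 84 pro-myeloid ones (edgeR adjusted p = 0.00777), and its part in their values was not tested.

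For the 4 members that differed, the 3 genes with the most similar profile over the 6 libraries were sought among 9388 candidates, by the root mean square (RMS) difference of centred log2 CPM. For Tcf3 these were Pdzd4 (0.056), Sept6 (0.081) and Srl (0.100), and for Tcf4 they were Gmppa (0.047), Gsn (0.053) and Ppard (0.058). For Id1 they were Tfr2 (0.20), Plin3 (0.31) and Gadd45g (0.33), and for Tal1 they were Spred2 (0.42), Hmgn3 (0.49) and Hcn2 (0.50). The RMS difference tends to grow with the size of the fold change, so it does not rank the members by how closely they are matched. The Pearson r of these genes with their member was 0.990 to 0.997 for Tcf3 and 0.986 to 0.997 for Tcf4. For Id1 it was 0.991 to 0.997, and for Tal1 0.958 to 0.967. The 6 libraries form only 2 groups, so the likeness describes these libraries. By Pearson correlation in place of RMS, the 3 leading genes were others for Tcf3, Id1 and Tal1, and for Tcf4 only Gmppa was shared.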

How the data were processed

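The authors deposited 1 table of raw read counts per gene, with the summed exon length of each gene in bases (a value of another kind, used only to divide levels by length). Counting was done with featureCounts 1.5.1 per the file headers, on UCSC mm10 gene exons, from primary alignments and ignoring strand. The submitters' processing notes name Trimmomatic, Bowtie, TopHat and DESeq2, for which no settings are given in the sources used here. No column of another sample was present (0 columns). Reads carry no molecular identifiers, so floors cover counting error only.

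Genes were tested with edgeR 4.0.16 in R 4.3.3 (filterByExpr, TMM, quasi-likelihood F test, two-sided, Benjamini-Hochberg over all 12477 genes, threshold 0.05), with 3 libraries per group and no block. CPM used TMM-scaled library sizes, with factors from 0.961 to 1.05. An SE was derived from the F statistic. On simulated counts for this comparison and its 12477 genes, 30% of 100 genes changed by a log2 of 1 and 91% of 100 changed by a log2 of 3 were called, and 9.02% of calls were false. No other genes were changed in this single simulated set, while 4821 genes were called in the data. The adjusted threshold is stricter when few genes change, so the shares of changed genes that were called do not carry over to the data. The false share was above the threshold of 0.05, and whether it holds for the data was not tested. The 9 members, all lists and tests and the naming rule were chosen with earlier results of these data known. The rule named all members, from each list the 4 tested genes of lowest adjusted p, listed genes a result turns on, and for each called member the 3 genes of most similar profile with at least 5 CPM in the higher group. The symbols Spi1 and Adgre1 were found as Sfpi1 and Emr1. Alternatives were other scaling factors and filters, DESeq2 1.42.0, limma-voom (limma 3.58.1), a minimum absolute log2 fold change of 1 and each library left out in turn. The older quasi-likelihood method of edgeR and its robust form were added after seeing the data.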

Additional observations from a re-analysis of the deposited data

How the results depend on the processing

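Tcf3 and Id1 kept their direction and call in all 16 alternatives, with log2 fold changes of 1.31 to 1.47 and -4.85 to -4.25. With a minimum absolute log2 fold change of 1, 1482 genes and 2 members were called, and Tcf4 (-0.62, adjusted p = 1.0) and Tal1 (2.47, adjusted p = 0.0654) were lost. The estimate of Tcf4 is below that minimum, so its loss follows from the construction of the test. The estimate of Tal1 is above the minimum, with an SE of 0.56 in the main fit, so its loss does not. With 1 library left out, 3086 to 5385 genes and 3 to 5 members were called, and the lowest count came without pro-lymphoid replicate 6. The log2 fold changes then ran from -0.71 to -0.49 for Tcf4, -0.12 to 0.08 for Tcf12, -1.42 to -0.61 for Id2 and 2.04 to 3.07 for Tal1. Id2 was also called in DESeq2 (-1.12, adjusted p = 0.0204). Tcf12 changed sign with upper-quartile factors (0.0067) or no scaling (0.0068), without pro-lymphoid replicate 5 (0.0191) and without pro-myeloid replicate 4 (0.0824), in no case past the threshold. With 1 library left out, Smad5 ran from -0.2251 to 0.0911, with a changed sign without pro-myeloid replicate 2, and Scx from -0.4921 to 0.7081, with a changed sign without pro-lymphoid replicate 6 (0.1445) or pro-myeloid replicate 2. Scx also changed sign with limma-voom (0.0486). The cause was not tested. The ratio of summed E protein to summed ID transcripts moved, in pro-lymphoid culture, from 10.8 to 4.73 without Tcf3 and 45.3 without division by length, and, in pro-myeloid culture, from 1.88 to 5.15 without Id1 and 11.2 without division by length. With 1 library left out it ran from 9.06 to 12.1 and from 1.52 to 2.09. Over all scalings the median log2 fold change of all genes moved by at most 0.05. No paired analysis was possible because the groups share no replicate number.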
